A study of Mus musculus with 6 samples.

Results

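The genes described here encode parts of the inflammasome of the intestinal epithelium and of its output. They are the sensor Nlrp6, the adaptor Pycard, the caspases Casp1 and Casp4, the gasdermins Gsdmd, Gsdmc2, Gsdmc3 and Gsdmc4, and the cytokine Il18. They were taken from the table of expression values by symbol, and 7 of the 9 genes were found among the 21397 genes listed. Gsdmc2 and Gsdmc3 were not analysed here. RNA was sequenced from small intestinal organoids of young adult, sex- and age-matched Fpr2f/f mice on the C57BL/6J background. In these mice both Fpr2 alleles carry loxP sites, and no Cre is named for these samples, so that Fpr2 is taken as intact in both groups. The organoids were grown from crypts in Matrigel with IntestiCult medium for 5 days. The MMK-1 group received MMK-1, a synthetic peptide agonist of the receptor FPR2, at the 1 μM of the protocol text, although the treatment label reads 1 mM, and the Control group received the vehicle, 0.1% DMSO. Each group had 3 libraries, and the organoids in each library were pooled from several mice.

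The labels do not say whether the libraries of a group came from separate cultures, so that the p-values below measure the spread between these libraries, which may be technical. Expression is given as fragments scaled to the length of the gene in kilobases and to the library's total (FPKM), and the totals ranged from 35512739 to 37537463 fragments. Of the variance, 92.4% lay on the principal component that separated the groups. MMK-1 replicate 3 stood apart from the other MMK-1 libraries on the next component, with 4.48%. Without it, the direction and the call of every tested gene of the group were kept. The groups were compared by limma on log2(FPKM + 1) for 10551 genes, those whose mean FPKM was 1 or more, and a gene was called where p, adjusted by Benjamini-Hochberg, did not exceed 0.05. Fold changes on this scale understate those of genes with low values. The epithelial marker Epcam lay between 376.9 and 414.9 FPKM in all 6 libraries on the deposited scale. With the libraries rescaled by the median of ratios, it was called lower, with a log2 fold change of -0.16 (limma adjusted p = 0.0034). Of 12 leukocyte markers with values, 10 were under the filter on low values. The defining genes Ptprc and Tyrobp had at most 3 fragments in any library, Adgre1 and Cd3e at most 1, and Itgax 0, while Itgam had 71 to 212 fragments, Cd68 41 to 167 and Cd14 33 to 81.

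Inflammasomes are cytosolic complexes in which a sensor that has met a microbial product or a danger signal gathers the adaptor ASC, the product of Pycard, and thereby activates caspase-1. Active caspase-1 matures pro-IL-18 and cleaves gasdermin D, whose amino-terminal part forms pores in the plasma membrane, and caspase-4 of the mouse (also called caspase-11) cleaves gasdermin D after binding lipopolysaccharide. In the gut, NLRP6 is known for its high expression in epithelial cells, IL-18 is made by the epithelium at rest, and gasdermin C is known for its induction in epithelium during type 2 immune responses. Activation of these proteins is largely post-translational, and RNA levels do not measure it.

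The 4 genes that fell with MMK-1 are shown first by the 250 bases before their RefSeq transcription starts on GRCm38.p6. They were picked by this outcome, and whether they moved together was not tested. The files of the study use mm10, the same assembly. RefSeq promoters were found for 5 of the 7 genes, namely these 4 and Pycard. Capitals mark matches to any of 5 motifs searched on both strands. The Casp1 window (chr9:5298267-5298516, plus strand) held no match. The Casp4 window (chr9:5308599-5308848, plus strand, the first of 2 starts listed) held overlapping NF-kappaB matches from position -93 to -83 and another at -39 to -30, where -1 is the base before the start. The Nlrp6 window (chr7:140920652-140920901, plus strand) held an AP-1 match at -140 to -134. The Il18 window (chr9:50554450-50554699, plus strand) held a match to the STAT6 motif at -46 to -37.
Casp1: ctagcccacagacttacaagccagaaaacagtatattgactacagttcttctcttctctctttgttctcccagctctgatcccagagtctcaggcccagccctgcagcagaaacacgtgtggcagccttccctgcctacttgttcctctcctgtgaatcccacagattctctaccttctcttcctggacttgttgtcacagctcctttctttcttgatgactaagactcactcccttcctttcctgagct
Casp4: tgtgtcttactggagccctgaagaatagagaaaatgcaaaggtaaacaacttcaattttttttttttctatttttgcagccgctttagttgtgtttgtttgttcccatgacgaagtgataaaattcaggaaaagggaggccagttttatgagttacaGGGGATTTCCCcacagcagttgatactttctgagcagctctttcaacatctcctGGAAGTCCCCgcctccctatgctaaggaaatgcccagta
Nlrp6: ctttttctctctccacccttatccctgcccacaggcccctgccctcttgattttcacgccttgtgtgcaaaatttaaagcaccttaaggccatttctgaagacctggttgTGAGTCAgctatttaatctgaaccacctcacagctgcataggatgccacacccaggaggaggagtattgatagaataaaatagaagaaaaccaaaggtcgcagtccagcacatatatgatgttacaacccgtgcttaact
Il18: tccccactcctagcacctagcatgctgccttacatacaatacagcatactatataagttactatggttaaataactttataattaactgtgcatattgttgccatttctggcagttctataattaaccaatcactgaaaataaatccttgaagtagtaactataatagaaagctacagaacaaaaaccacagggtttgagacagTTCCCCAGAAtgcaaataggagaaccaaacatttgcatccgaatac

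None of the motifs was shared by the 4 windows. The Pycard window held no match. Of 32851 promoter windows of this length, 7.25% held the NF-kappaB motif, 6.75% held TGANTCA (AP-1) and 5.85% held TTC and GAA set 4 bases apart (STAT6). The motifs of interferon signaling, a pair of GAAA set 2 bases apart (interferon-stimulated response element) and TTCNNNGAA (gamma-activated site), were in 2.98% and 7.02% of all windows and in 0 of these 5. A match describes letters in the window and not binding, and a missing match says nothing about the factor.

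Of the 7 genes with values, 6 passed the filter on low values and all 6 were called, with 4 lower and 2 higher with MMK-1. Calls were common in these libraries. Among all 10551 genes tested, 73.2% were called in either direction, 24.7% lower and 48.5% higher. Over all genes the log2 fold change had a median of 0.13. When the libraries were rescaled by the median of ratios this median was -0.0040, and 37.2% of genes were called lower and 34.8% higher. The FPKM of the groups did not overlap for any of the 6 genes, as was the case for 76.8% of all genes, and the exact two-sided permutation p of each was 0.1, the smallest that 3 libraries against 3 allow. None of the 6 reached a fold change of 2, which 7.04% of all genes did at a p of at most 0.05.

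**Figure D1:**
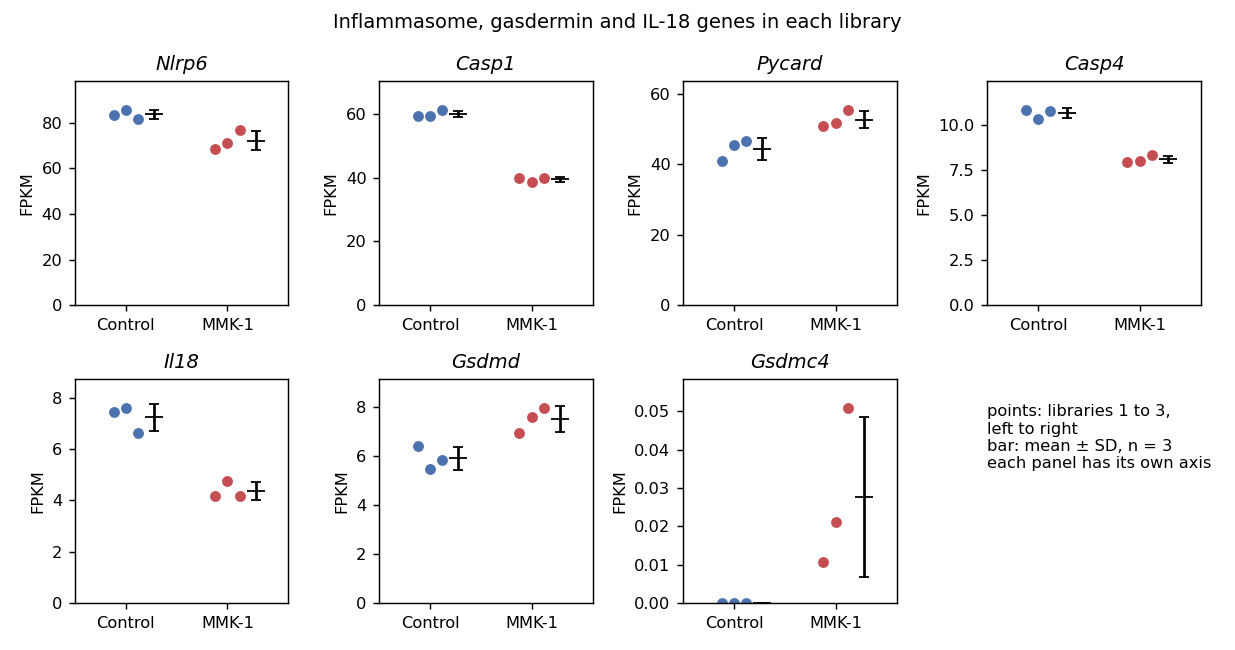
FPKM (y axis, a separate linear scale from 0 in each panel) of the 7 genes in each library, with Control libraries in blue, MMK-1 libraries in red and the mean ± SD (n = 3) in black. Nlrp6, Casp1, Casp4 and Il18 were lower in all 3 MMK-1 libraries, Pycard and Gsdmd were higher, and Gsdmc4 had at most 0.0509 FPKM in any library.

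Nlrp6 (NCBI gene 101613), the sensor, is placed at 140920902 to 140929192 of chromosome 7 on GRCm38. Its FPKM was 83.6, 85.5 and 81.9 in the controls and 68.5, 71.3 and 76.8 with MMK-1. All MMK-1 values were below the lowest control value, and replicate 3, the library that stood apart, was the closest to the controls. The mean fell by 13.7%, from 83.6 ± 1.82 to 72.2 ± 4.22 (SD, n = 3 in each group). The log2 fold change was -0.21 (standard error 0.0489, 95% interval -0.32 to -0.10, limma adjusted p = 0.004). Behind these values stood 13983 to 14664 fragments in each control library and 11120 to 13038 in each MMK-1 library, the highest numbers of the 7 genes. The log2 fold change was -0.37 with median-of-ratios scaling and -0.32 with upper-quartile scaling, while it was -0.26 without MMK-1 replicate 3. It was thus larger relative to the median gene than on the deposited scale.

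Pycard (NCBI gene 66824), the gene of the adaptor ASC, lies on chromosome 7 from 127989708 to 127993867 on the minus strand. Its FPKM was 40.9, 45.4 and 46.7 in the controls and 50.8, 51.7 and 55.3 with MMK-1. The groups did not overlap, and the widest gap inside a group, between control replicates 1 and 2, was wider than the gap between the groups. The mean rose by 18.7%, from 44.3 ± 3.07 to 52.6 ± 2.38 (SD, n = 3), with a log2 fold change of 0.24 (standard error 0.0584, 95% interval 0.11 to 0.38, limma adjusted p = 0.0048). This rise did not hold against the scaling of the libraries. The log2 fold change was 0.09 with median-of-ratios scaling (limma adjusted p = 0.18), 0.13 with upper-quartile scaling (limma adjusted p = 0.068) and 0.10 after correction for GC content (limma adjusted p = 0.12). The share of all genes called higher was 38.8% with upper-quartile scaling and 35.4% after GC correction. Pycard overlaps Gm45205, another annotated gene, and the part of reads from the shared bases was not tested.

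Casp1 (NCBI gene 12362) encodes the caspase that matures IL-18 and cleaves gasdermin D. It lies on chromosome 9 from 5298517 to 5307265. In the control libraries its FPKM was 59.4, 59.3 and 61.1, and in the MMK-1 libraries it was 40.0, 38.6 and 40.0. The spread within each group was small beside the difference, and the standard error was the smallest of the 6 genes. The mean fell by 34.0%, from 59.9 ± 1.03 to 39.5 ± 0.801 (SD, n = 3), and the log2 fold change was -0.59 (standard error 0.0382, 95% interval -0.68 to -0.50, limma adjusted p = 1.9e-06). Only 8.06% of the genes tested had a log2 fold change as low. With each library left out in turn the value stayed between -0.60 and -0.57. After correction for GC content it was -0.93 (limma adjusted p = 6.4e-06), and the transcripts of Casp1 have a GC content of 41.2%.

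Casp4 (NCBI gene 12363), the gene of the caspase that binds lipopolysaccharide, starts 1562 bases after the end of Casp1 on the same strand and runs from 5308828 to 5336783. Its FPKM was 10.8, 10.3 and 10.8 in the controls and 7.94, 7.96 and 8.30 with MMK-1. Each MMK-1 library was thus below each control library. The mean fell by 24.0%, from 10.6 ± 0.273 to 8.07 ± 0.20 (SD, n = 3), with a log2 fold change of -0.36 (standard error 0.0446, 95% interval -0.46 to -0.26, limma adjusted p = 0.00011). The fall was estimated from 576 to 602 fragments per control library and 420 to 459 per MMK-1 library. After correction for GC content, which is 41.0% in its transcripts, it was -0.71 on the log2 scale (limma adjusted p = 7.7e-05). Casp12, the next caspase gene, begins 8646 bases after Casp4 and had at most 2 fragments in any library.

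Gsdmd (NCBI gene 69146), the gene of the pore-forming gasdermin D that both caspases cleave, lies on chromosome 15 from 75862327 to 75867408. Its FPKM was 6.38, 5.47 and 5.82 in the controls and 6.92, 7.59 and 7.94 with MMK-1. The lowest MMK-1 library, replicate 1, lay closer to control replicate 1 than to the other MMK-1 libraries. The mean rose by 27.0%, from 5.89 ± 0.458 to 7.48 ± 0.520 (SD, n = 3), and the log2 fold change was 0.30 (standard error 0.0669, 95% interval 0.15 to 0.45, limma adjusted p = 0.0033). This was 404 to 470 fragments per control library and 483 to 580 per MMK-1 library. The rise was 0.16 with median-of-ratios scaling (limma adjusted p = 0.046), the weakest of its calls under any scaling.

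Gsdmc4 (NCBI gene 74548) belongs to the gasdermin C genes, which are similar copies placed side by side on the minus strand of chromosome 15, with Gsdmc from 63775968, Gsdmc2 from 63824346, Gsdmc3 from 63857724 and Gsdmc4 from 63891264 to 63912297. Gsdmc4 had 0 fragments in all 3 control libraries, which allows up to 3 fragments in each, and 1, 2 and 5 fragments with MMK-1. This is at most 0.0509 FPKM, and 2 of the 3 MMK-1 libraries were at or under the limit that a count of 0 allows, so that no fold is given. The gene was under the filter on low values. With every gene above 0 and a pseudocount of 0.1, its limma adjusted p was 0.057, and a difference was not detectable at this depth. The sources used here do not say how reads common to the copies were counted, and its few fragments are uncertain for that reason.

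Il18 (NCBI gene 16173), the cytokine that caspase-1 matures, lies on chromosome 9 from 50554827 to 50581840. Its FPKM was 7.47, 7.60 and 6.63 in the controls and 4.16, 4.76 and 4.18 with MMK-1. The lowest control library was well above the highest MMK-1 library. The mean fell by 39.6%, from 7.23 ± 0.524 to 4.37 ± 0.337 (SD, n = 3), the largest fall in percent among the 6 genes. Its log2 fold change was -0.62 (standard error 0.0671, 95% interval -0.77 to -0.46, limma adjusted p = 4.4e-05), and 7.54% of all genes tested were as low. It was -0.73 in limma-voom on the fragments, which uses no pseudocount of 1 FPKM, and -0.59 without MMK-1 replicate 3.

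Il18 shares 355 bases with Bco2, a carotenoid oxygenase gene on the opposite strand from 50533087 to 50555181. Bco2 fell from 50.2 ± 0.599 to 13.0 ± 1.12 FPKM (SD, n = 3), with 4762 to 4894 fragments in each control library and 1118 to 1359 in each MMK-1 library. Il18 itself had 643 to 740 fragments in each control library and 383 to 443 in each MMK-1 library. Tex12, which lies within the span of Il18 on the opposite strand, had 0, 5 and 2 fragments in the controls and 21, 11 and 15 with MMK-1. Whether the counting used strand is not given in the sources used here, so that reads from the shared bases cannot be told apart, and the part of Bco2 in the fall of Il18 was not tested.

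**Figure D2:**
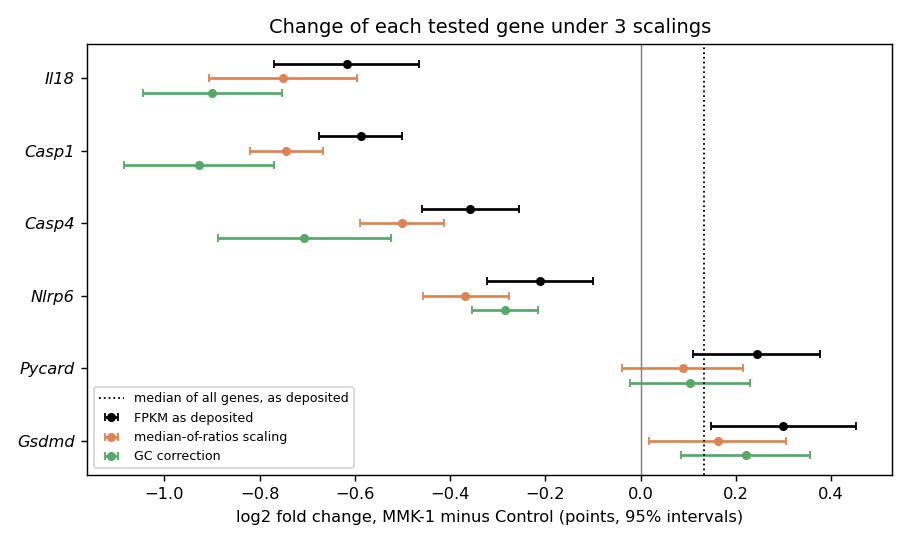
Log2 fold change of each tested gene, MMK-1 minus Control (x axis), with 95% intervals from limma, on the FPKM as deposited (black), with median-of-ratios scaling (orange) and after correction for GC content (green), with a dotted line at the median of all genes as deposited, 0.13. Il18, Casp1, Casp4 and Nlrp6 lie below 0 under all 3 scalings, Gsdmd lies above 0, and the interval of Pycard reaches below 0 under the last 2.

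As FPKM values are per length of gene, levels can be set beside each other. The order in the control libraries was Nlrp6, Casp1, Pycard, Casp4, Il18, Gsdmd and Gsdmc4 from the highest level to the lowest, and no neighbours in this order overlapped in their FPKM. In the MMK-1 libraries the order was Nlrp6, Pycard, Casp1, Casp4, Gsdmd, Il18 and Gsdmc4. Pycard thus stood above Casp1 in each MMK-1 library and below it in each control library, and Gsdmd and Il18 exchanged places likewise. With MMK-1, the ranges of the neighbours Casp4 and Gsdmd met at 7.94 FPKM, the lowest value of Casp4 and the highest of Gsdmd, although Casp4 was above Gsdmd within each MMK-1 library.

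Ratios of 2 genes within a library do not depend on the scaling between libraries. A correction for GC content does not cancel in them, and it was not applied to them. In all, 6 pairs were compared. Casp4 to Casp1 and Il18 to Casp1 were planned, and the other 4 were chosen after the values were seen. Planned pairs that needed Gsdmc2, Gsdmc3 or Gsdmc4 could not be run. The FPKM of Il18 was 0.126, 0.128 and 0.108 of that of Casp1 in the controls and 0.104, 0.123 and 0.105 with MMK-1. These values overlapped, and on the log2(FPKM + 1) scale the ratio differed by -0.03 (exact permutation p = 1), with a standard deviation of 0.118 in each group. The difference was -0.12 with a pseudocount of 0.1, and between -0.10 and 0.01 with each library left out in turn. The values thus did not separate the fall of the cytokine from that of its caspase. The test could not have done so at 0.05, as its smallest p is 0.1.

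The FPKM of Casp4 was 0.182, 0.174 and 0.176 of that of Casp1 in the controls and 0.199, 0.206 and 0.207 with MMK-1. Casp4 thus fell less than its neighbour in every MMK-1 library, with a difference of 0.23 in log2 ratio, on the log2(FPKM + 1) scale as for the other pairs, which differs from the plain ratio where a gene is low. Pycard to Casp1 moved from 0.688, 0.765 and 0.764 to 1.27, 1.34 and 1.38, a difference of 0.83 in log2 ratio. Gsdmd to Il18 moved from 0.855, 0.720 and 0.878 to 1.66, 1.596 and 1.90, a difference of 0.92 on the log2(FPKM + 1) scale and of 1.06 with a pseudocount of 0.1. In Pycard to Casp1, Gsdmd to Il18 and Pycard to Nlrp6, the first gene was higher and the second lower in every MMK-1 library than in any control library. The separation of these ratios thus followed from the single genes and is not a further result. Nlrp6 to Casp1 and Pycard to Nlrp6 differed by 0.38 and 0.45 in log2 ratio, and their groups did not overlap either. After correction for GC content the log2 fold changes of Nlrp6 and Casp1 were -0.285 and -0.93, further apart than on the deposited scale. For each of the 5 pairs of this paragraph the exact two-sided permutation p was 0.1, the smallest possible. After Benjamini-Hochberg adjustment over the 6 pairs it was 0.12. Where a gene that rose was set over a gene that fell, this p was fixed before the test.

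**Figure D3:**
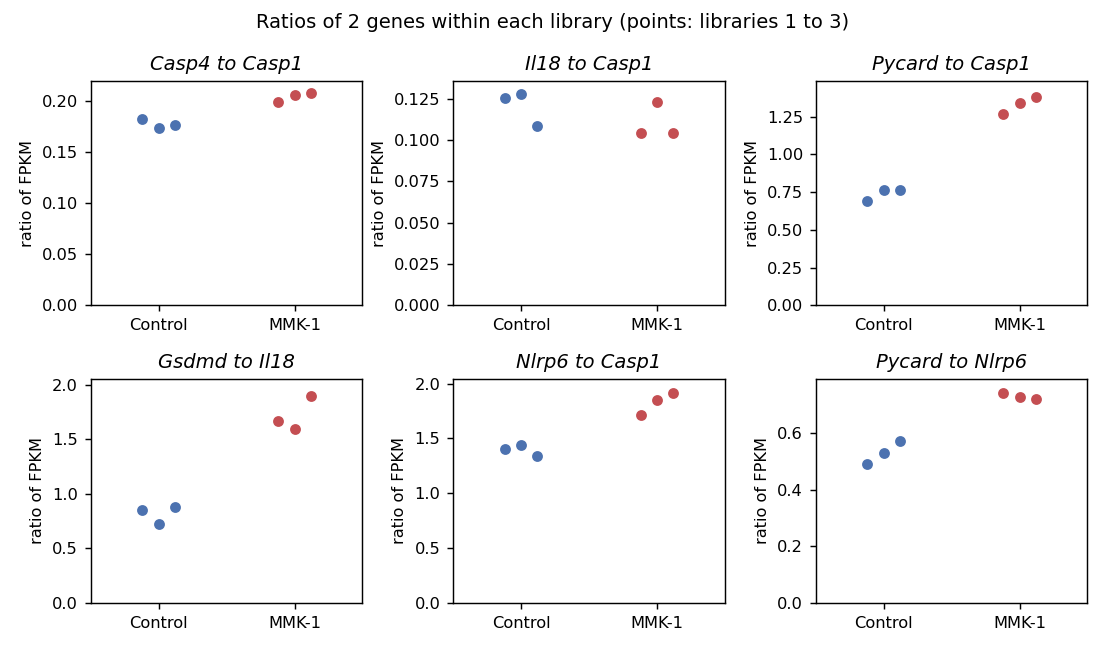
Ratio of the FPKM of 2 genes within each library (y axis, linear from 0), with Control libraries 1 to 3 in blue and MMK-1 libraries 1 to 3 in red. The groups overlap for Il18 to Casp1 and for no other pair, and Pycard to Casp1 lies at 0.765 or less in the controls and at 1.27 or more with MMK-1.

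The bulk RNA cannot tell fewer cells of a type from less RNA in each cell, and the markers of epithelial cell types moved between the groups. Over all genes tested, 48.5% were called higher and 24.7% lower. Of 12 enterocyte markers, 11 were called lower, and their summed FPKM went from 10147 to 10237 in the controls to 5637 to 6067 with MMK-1, and the median change was -1.12 on the log2 scale. Stem cell markers were called higher in 7 of 7 tested, and their sum went from 77.2 to 79.2 in the controls to 408.4 to 433.9 with MMK-1. Paneth cell markers were called higher in 7 of 7, with sums of 410.8 to 461 in the controls and 1309 to 1448 with MMK-1. Of 8 goblet cell markers, 6 were called higher and 2 lower, with sums of 1838 to 1984 and 1980 to 2161, and with median-of-ratios scaling 3 were called higher and 2 lower. The general epithelial list had 4 of 9 called higher and 4 lower, and its sum was 3731 to 3762 in the controls and 2607 to 2814 with MMK-1. Tuft cell markers were all under the filter, and of 8 enteroendocrine markers 5 were called higher and 0 lower, or 4 and 1 with median-of-ratios scaling. The falls of Nlrp6, Casp1, Casp4 and Il18 were measured beside these shifts, and the part of cell composition in them was not tested.

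Markers of other cells moved at low levels. Of 12 leukocyte markers with values, Cd68 and Itgam passed the filter and both were called lower, with log2 fold changes of -0.96 and -0.79, and the summed FPKM of the list went from 6.999 to 8.11 in the controls to 3.64 to 5.02 with MMK-1. The sum of the mesenchymal and endothelial list was 4.74 to 5.30 in the controls and 3.50 to 5.11 with MMK-1, almost all of it from Vim. In fragments, Csf1r went from 20, 23 and 23 in the controls to 0, 1 and 2 with MMK-1, and Cd14 from 36, 33 and 54 to 81, 68 and 81. The part of these cells in the changes of Casp1 and the other genes was not tested.

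The other genes of the pathway were taken from 7 lists with 79 genes, of which 67 had values and 45 were tested. Of these 45, 15 were called higher and 19 lower, and the log2 fold changes had a median of -0.06. Over all genes tested, 48.5% were called higher and 24.7% lower, or 73.2% in either direction. With median-of-ratios scaling 9 were called higher and 28 lower, and the median was -0.20, where 34.8% of all genes were called higher and 37.2% lower. Among the sensors, 6 of 9 were called lower and 2 higher. Naip5 and Naip6, receptors for bacterial flagellin, fell by 0.98 and 0.93 on the log2 scale. Naip5 went from 34.1, 34.1 and 34.1 FPKM to 15.7, 17.0 and 17.8, and Naip6 from 96.1, 93.3 and 94.5 to 46.8, 49.6 and 51.3. The groups were far apart for both genes, and none of their MMK-1 libraries came near a control library. The Naip genes are similar copies, and how reads shared among them were assigned is not given in the sources used here. Nlrp1b fell by 0.84 and Naip2 by 0.42. Nlrp1b is low in these organoids, and its fall is understated by the pseudocount of 1. Its mean FPKM fell by 67.9%, against 50.7% for Naip5 and 47.9% for Naip6, and with every gene above 0 and a pseudocount of 0.1 its log2 fold change was -1.49.

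Nlrc4, the partner that NAIP receptors activate, was not called, with a log2 fold change of -0.04 (limma adjusted p = 0.48). With median-of-ratios scaling Nlrc4 was at -0.19 (limma adjusted p = 0.0041). The RNA helicase genes Dhx15 and Dhx9, of which Dhx9 is a known partner of NLRP9b, rose by 0.53 and 0.33. After correction for GC content Dhx15 was at 0.18 and Dhx9 was no longer called, at 0.04 (limma adjusted p = 0.59), and with median-of-ratios scaling Dhx9 was at 0.17. Nlrp3 had at most 2 fragments in any library, and Aim2 was under the filter with 137 to 215 fragments.

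Of the other caspases, 4 of 6 tested were called lower and 1 higher. Casp6 fell by 0.54 and Casp9, the caspase of the apoptosome, by 0.34 on the log2 scale. In the IL-1 family and its receptors, 1 of 11 genes with values passed the filter, and Sigirr, an inhibitory receptor of the family, fell by 0.46. Il1b had at most 2 fragments in any library. The IL-18 receptor gene Il18r1 had 18, 14 and 13 fragments in the controls and 42, 41 and 28 with MMK-1, and Il18bp, the gene of the decoy receptor of IL-18, had 102 to 126 and 85 to 119. With every gene above 0 and a pseudocount of 0.1, where 43.7% of 20676 genes were called, the limma adjusted p was 0.0081 for Il18r1 and 0.67 for Il18bp.

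The other gasdermin genes were all under the filter. Gsdme, another pore-forming gasdermin gene, had 214, 239 and 258 fragments in the controls and 94, 144 and 138 with MMK-1, and Gsdma2 had 23, 17 and 30 against 6, 0 and 4. With every gene above 0 and a pseudocount of 0.1 both were called lower, with a limma adjusted p of 0.015 for Gsdme and 0.0049 for Gsdma2. Gsdmd was thus the gasdermin gene with values in the table that passed the filter. Among 13 tested regulators and genes of pores and membrane rupture, 6 were called higher and 1 lower, and 4 and 5 with median-of-ratios scaling. Panx1, a membrane channel gene, rose by 0.63, Ninj1, which mediates membrane rupture, by 0.45, and Rraga by 0.43 (0.28 with median-of-ratios scaling), while Zdhhc9, a palmitoyltransferase gene, fell by 0.46.

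Of 14 transcription factors and receptors upstream of the pathway, 5 were called higher and 7 lower, and with median-of-ratios scaling 1 was called higher and 9 lower. Il10rb, a receptor chain for IL-10 family cytokines, fell by 0.72 on the log2 scale and Il4ra, a receptor chain for type 2 cytokines, by 0.32, while Rela, the NF-kappaB subunit, rose by 0.32 (0.17 with median-of-ratios scaling). Stat6, the transcription factor of type 2 cytokines, had a log2 fold change of 0.23 and Irf8 of 0.19, and neither was called with median-of-ratios scaling (limma adjusted p = 0.072 and 0.39). Of the necroptosis genes, Ripk3 rose by 0.33 (0.17 with median-of-ratios scaling) and Ripk1 was not called. Ripk1 was called lower with median-of-ratios scaling, at -0.19 (limma adjusted p = 0.014), and after GC correction, at -0.21 (limma adjusted p = 0.0065), while Mlkl and Zbp1 were under the filter.

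**Figure D4:**
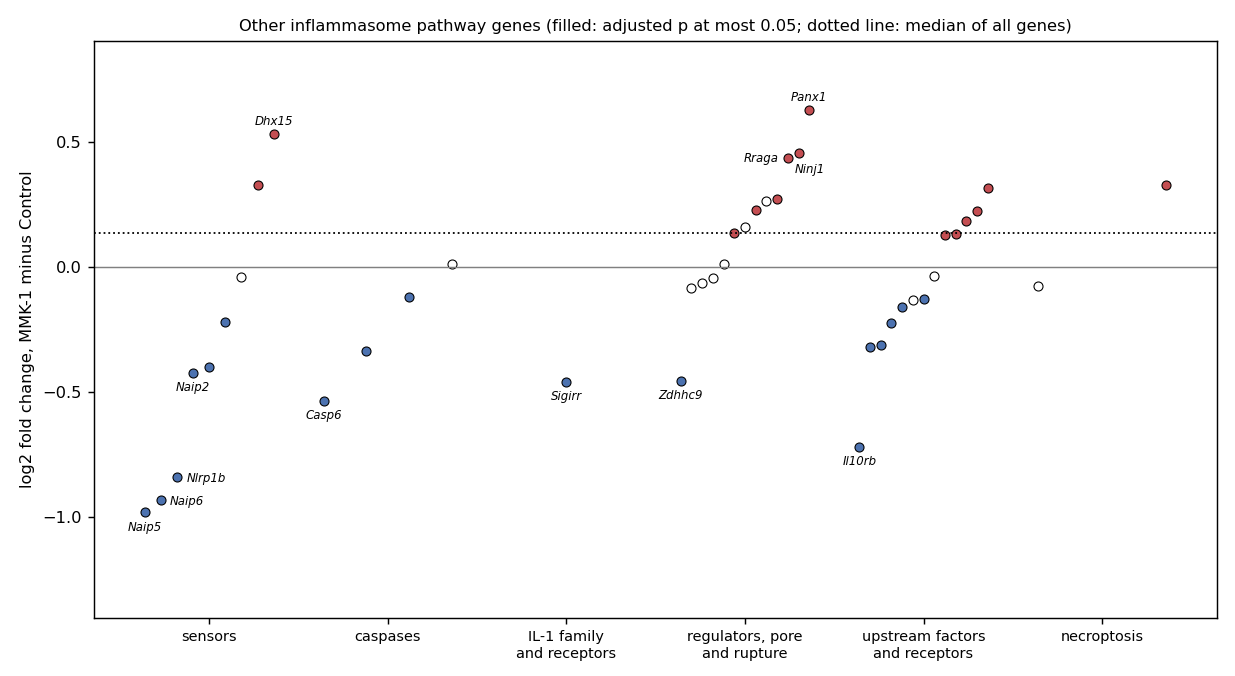
Log2 fold change, MMK-1 minus Control (y axis), of tested genes of the other lists, grouped by role and without those not reported here, with filled points for a limma adjusted p of at most 0.05 (blue lower, red higher), open points for the others and a dotted line at the median of all genes. Naip5, Naip6 and Nlrp1b are the lowest points shown, and every point shown lies within 1 of 0.

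The table lists the KEGG pathways of each gene, and 6 of the 7 genes with values belong to NOD-like receptor signaling, a pathway looked at after the values were seen. Of its 108 other tested genes, 45 were called higher and 38 lower, beside 48.5% and 24.7% of all genes tested. The log2 fold changes had a median of 0.07, beside 0.13 for all genes. On the log2(FPKM + 1) scale, 4 were lower by at least 2-fold, among them Irf7, Oas1a and Irf9, with log2 fold changes of -1.86, -1.13 and -1.02. By plain FPKM, Nlrp1b and Naip5, described above, were also below 50% of their control means. The 4 that were higher by at least 2-fold on this scale were the defensin genes Defa26, Defa17, Defa24 and Defa38, similar copies whose shared reads make each of them uncertain.

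As a description, genes among the 3 whose deviations from the group means over the 6 libraries were most like those of each gene were Mtmr3 for Nlrp6 (Pearson r = 0.997), Atp5l for Casp1 (r = 0.998), Kat8 for Casp4 (r = 0.998), Klf6 for Il18 (r = 0.994), Ube2c for Gsdmd (r = 0.997) and 2310043O21Rik for Pycard (r = 1.000). With so few libraries such values are common, and between 28 and 303 genes passed 0.95 for each gene.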

How the data were processed

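RNA-seq was performed on 3 control and 3 MMK-1 organoid libraries, grouped by their titles. The values deposited by the authors are FPKM per gene, that is, fragments divided by the length of the gene and by the library's total, and no further scaling between libraries is stated. The submitters' processing notes name mm10, HISAT2, HTSeq, DESeq2 and R 3.2.0, without role or order, and the use of strand is not given in the sources used here. The table also holds gene annotation, and its KEGG columns were used.

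As each FPKM is a whole number of fragments times a factor of the gene and library, fragments and totals were recovered for 100% of the 20676 genes above 0. Counts of fragments cover counting error only, and 0 fragments were taken to allow up to 3. Genes whose mean FPKM was 1 or more were tested with limma 3.58.1 in R 4.3.3 (limma-trend on log2(FPKM + 1)), with Benjamini-Hochberg adjustment over all genes tested, and the study's thresholds (fold change of at least 2, p of at most 0.05) were applied separately. Single values and within-library ratios were compared by exact two-sided permutation tests in scipy 1.17.1 under Python 3.11.15 (numpy 2.4.6, pandas 2.3.3), and plots were made with matplotlib 3.10.9. Genes were placed by GENCODE vM21 (GRCm38), and promoter sequences from RefSeq (GRCm38.p6).

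In simulated libraries, 200 changed genes were recovered to 100%, and 16 unchanged genes of 10393 tested were called. The planted changes were all larger than those of Nlrp6, Pycard, Gsdmd and Casp4, so this recovery says nothing about changes as small as theirs. Far fewer genes were changed than were called in the data. The spread between simulated libraries was a fixed setting and was not estimated from the data. As alternatives, the tests of the members were refitted with upper-quartile and median-of-ratios scaling, without the filter, with a pseudocount of 0.1, and with limma-voom on fragments, a replicate block, a correction for GC content (local regression with a span of 0.3, with values for 98.6% of genes) and each library left out. The counts of other pathway genes were refitted in the same ways except for GC content, and the ratios with the other pseudocount and with each library left out. The genes described, the gene lists and the tests were chosen with earlier results of these data known. The genes named are all members of the group with values, the 3 largest changes in each direction of each list, of which not all are given singly, the most similar genes, and genes named for their role after their values were seen, such as Nlrc4, Nlrp3, Aim2, Il1b, Il18r1, Il18bp and those of the KEGG pathway. A few genes of the lists are counted but not reported by name here.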

Additional observations from a re-analysis of the deposited data

How the results depend on the processing

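The 6 tested genes were refitted under 14 alternatives each. All 84 fits kept the direction and 81 kept the side of the threshold, and the 3 that did not were those of Pycard with upper-quartile scaling, median-of-ratios scaling and GC correction, where the number of these genes called higher was 1 in place of 2. The number called lower was 4 under every alternative. With median-of-ratios scaling, 9 other inflammasome genes were called higher, against 15 on the deposited scale. The cause of these shifts was not tested. The median over all genes moved from 0.13 to -0.0040 with this scaling, to 0.04 with upper-quartile scaling and to -0.0070 with GC correction. The ratio of Gsdmd to Il18 differed by 1.06 on the log2 scale with a pseudocount of 0.1, against 0.92 with a pseudocount of 1. With each library left out in turn, the highest limma adjusted p of any of the 6 genes was 0.023, for Nlrp6.

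Replicate numbers are shared by the groups, but same-numbered libraries did not deviate together (correlations of 0.025, -0.04 and 0.028), so the numbers were not taken as pairs. With the replicate block, 2 of the genes were called higher and 4 lower, as without it, and of the other inflammasome genes 14 were called higher and 17 lower. Depth limits Gsdmc4 and the other genes with few fragments, for which only large differences are detectable.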
